A study of Mus musculus with 16 samples.

Results

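The miRNAs described here are 7 that are known to be abundant in platelets and in the vessel wall: mmu-miR-126a-3p, mmu-miR-126a-5p, mmu-miR-191-5p, mmu-miR-21a-5p, mmu-miR-26a-5p, mmu-miR-221-3p and mmu-miR-222-3p. They were chosen by name among the 1881 mouse miRNAs on an Agilent single-colour miRNA microarray. Earlier results of these data were known when the choice was made. Serum from heart blood of male mice aged 4, 8, 36 and 58 weeks was measured, with 4 mice per age and 1 array per mouse, 16 arrays in all, to find miRNAs that change with age. No treatment or mutation is named, and the strain is not given in the sources used here. From each serum 1 ng of RNA was labelled, so that a signal is relative to RNA mass and not to serum volume.

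miRNAs are short RNAs, cut from a hairpin precursor, that repress messenger RNAs matching their seed, the stretch from base 2 to base 8. Serum is the fluid left after blood has clotted, and its miRNAs come from platelets, blood cells and many tissues. In such a bulk fluid, release by more cells of a type and more release per cell cannot be told apart. miR-126 is the characteristic miRNA of endothelial cells, where it supports vessel integrity. miR-221 and miR-222 repress Kit and the cell cycle inhibitor Cdkn1b and are expressed in endothelium and smooth muscle. miR-21, miR-191 and miR-26a are widely expressed and are among the well-known miRNAs of platelets.

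The mature sequences are shown because the seeds group the members and because they show how close the relatives are that a probe has to tell apart. RefSeq (GRCm38.p6) held the mature sequence of 6 of the 7 miRNAs. Capitals mark the seed, and miR-26b-5p and miR-21c are printed as relatives that share the seed of miR-26a-5p and of miR-21a-5p.
mmu-miR-126a-3p: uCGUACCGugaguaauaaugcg
mmu-miR-191-5p: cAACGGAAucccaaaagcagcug
mmu-miR-21a-5p: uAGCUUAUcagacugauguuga
miR-21c: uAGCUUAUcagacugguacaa
mmu-miR-26a-5p: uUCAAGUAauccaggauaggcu
miR-26b-5p: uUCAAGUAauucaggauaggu
mmu-miR-221-3p: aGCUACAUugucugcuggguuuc
mmu-miR-222-3p: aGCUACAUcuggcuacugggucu

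mmu-miR-221-3p and miR-222-3p share their seed and their first 8 bases, but only 11 of 23 positions in all. miR-26a-5p and miR-26b-5p share the first 10 bases and 19 of 21 positions, and miR-21a-5p and miR-21c share the first 15 bases and 16 of 21 positions. miR-21b shares 18 of 22 positions with miR-21a-5p but not its seed. Among the 6 sequences the other seeds differ from each other. The Mir221 hairpin (chrX:19146294-19146388, minus strand) and the Mir222 hairpin (chrX:19146893-19146971, minus strand) lie 504 bases apart and within no protein-coding gene of the RefSeq table. Mir126a (chr2:26591357-26591429, plus strand) lies within Egfl7, which codes for a protein secreted by endothelium. Mir191 (chr9:108568319-108568392, plus strand) lies within Dalrd3, 384 bases from Mir425. Mir21a (chr11:86584067-86584158, minus strand) lies within Vmp1. miR-26a-5p comes from 2 hairpins, Mir26a-1 (chr9:119031796-119031885, plus strand) within Ctdspl and Mir26a-2 (chr10:126995530-126995613, plus strand) within Ctdsp2, and the array cannot tell these sources apart.

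mmu-miR-126a-3p and miR-126a-5p are the arms of the same hairpin, of which only the 3p arm was seen in serum. The 73 bases of the Mir126a hairpin are printed with the 3p arm, positions 46 to 67, in capitals.
Mir126a: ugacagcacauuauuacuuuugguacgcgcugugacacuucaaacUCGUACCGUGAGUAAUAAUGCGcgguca

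Each of the 7 miRNAs was read by 30 spots per array, from 2 probes, or from 4 probes for miR-191-5p. The scanner software called miR-21a-5p detected on 16 of 16 arrays, miR-126a-3p on 15, miR-221-3p on 14, miR-26a-5p on 13 and miR-222-3p on 12. For comparison, 116 of the 1881 miRNAs (6.17%) were detected on at least 12 arrays and 24 (1.28%) on all 16. miR-126a-5p and miR-191-5p were detected on none of the 16 arrays, against 572 miRNAs (30.4%) detected on at least 1. The data therefore go against the description "abundant" for those 2 miRNAs in these sera, as far as these probes can show.

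Of the miR-21a-5p spots that carried no outlier flag, 95.3% (451 of 473) were well above background. The share was 72.8% for miR-126a-3p, 63.3% for miR-26a-5p, 51.5% for miR-222-3p and 45.2% for miR-221-3p. For miR-126a-5p it was 0 of 464 spots and for miR-191-5p 0 of 442. The unscaled signal of miR-126a-5p lay between -95.5 and 2.85, and that of miR-191-5p lay between -152 and -3.44. On no array did the scaled signal of either pass the floor of 3.79 described below.

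**Figure D1:**
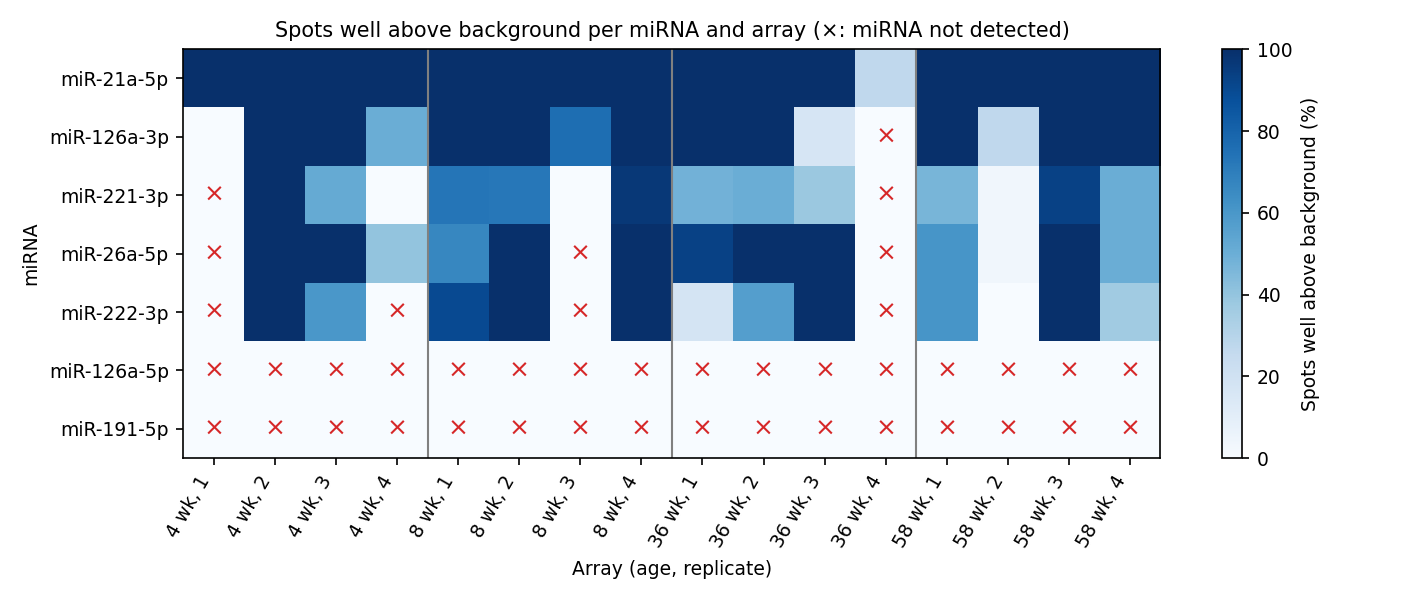
Share of spots well above background (colour, in percent) for each of the 7 miRNAs (rows) on each of the 16 arrays (columns, by age and replicate), with a cross where the miRNA was not detected. The rows of miR-126a-5p and miR-191-5p hold 16 crosses each, and on 36-week replicate 4 only miR-21a-5p was detected, with 8 of 30 spots well above background.

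The missing calls fell on few arrays. Of the 5 miRNAs that were detected, 4 missed a call, all of them on 36-week replicate 4, 3 also on 4-week replicate 1, and 2 on 8-week replicate 3. On 4-week replicate 4 miR-222-3p alone of the 5 was missing. The spread of the negative-control spots, a measure of background, had an SD of 59.3 on 36-week replicate 4. At 4 weeks it was 19.1 on replicate 1 and 7.45 on replicate 4. The scanner software had marked these 3 arrays for evaluation, and the SD was between 1.82 and 4.45 on the rest. The part of this background in the missing calls was not tested. On 4-week replicate 1 miR-126a-3p was called detected with 0 of 29 spots well above background. miR-221-3p was so called with 0 of 30 spots on 4-week replicate 4 and on 8-week replicate 3. So was miR-222-3p on 58-week replicate 2.

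Across the whole array, between 163 and 360 miRNAs were detected per array, no spot was saturated, and no pair of arrays held identical values. All arrays of 4 and 8 weeks lay on slide 1 and all arrays of 36 and 58 weeks on slide 2. Differences of 8 against 4 weeks and of 58 against 36 weeks therefore lie within a slide, while in 36 against 8 weeks and in 58 against 4 weeks age and slide cannot be told apart. Levels below are log2 of the scaled signal. Each array was scaled on the miRNAs detected on all arrays, and values under a floor of 3.79 (1.92 in log2) were set to it. Testing was limited to miRNAs with a detection call on 3 or more of the 4 arrays of some age. This left 285 miRNAs (15.2%), among them 5 of the 7 described here, so that counts over those 5 are not counts over the whole set. Levels of different miRNAs come from different probes and are not compared with each other.

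None of the 5 miRNAs passed an adjusted p of 0.05 in any comparison (limma with Benjamini-Hochberg adjustment over the 285 miRNAs). Among all tested miRNAs, 0.351% passed in the test for any difference among the ages, 0.351% in the trend with age, 0.351% in 58 against 4 weeks, and 0 in 8 against 4, 36 against 8 and 58 against 36 weeks. At an unadjusted p under 0.05, miR-222-3p passed in the trend and in 36 against 8 weeks, against 8.77% and 29.8% of all tested miRNAs. The other 4 passed at that level in no comparison. Among all tested miRNAs 4.56% did so in the test for any difference, 2.11% in 8 against 4, 1.75% in 58 against 36 and 4.56% in 58 against 4 weeks. These counts of 0 changed under 3 alternatives. Without the 3 marked arrays the trend passed for 3 miRNAs, miR-21a-5p (slope 0.33), miR-221-3p (0.24) and miR-222-3p (0.31), as it did for 53.7% of the 272 then tested. With normexp background correction it passed for miR-221-3p, miR-222-3p and miR-26a-5p, beside 5.96% of all tested. With weights for array quality 4 of the 5 passed in the test for any difference, beside 76.5% of all. Under these weights 3 also passed in the trend, beside 65.6%, 4 in 36 against 8 weeks, beside 63.2%, and 3 in 58 against 4 weeks, beside 62.1%. A share near that of all tested miRNAs, as under the weights and without the 3 marked arrays, is not a result about the members. Under normexp the shares were not near. There the adjusted p (limma) was 0.0485 for miR-221-3p and miR-222-3p and 0.0252 for miR-26a-5p. Whether the members differ from all tested miRNAs in this was not tested.

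mmu-miR-21a-5p, which represses Pdcd4, was the member seen most clearly. At 4 weeks its level was 8.72, 8.60, 8.03 and 8.36 on the 4 arrays, and at 8 weeks it was 7.60, 8.50, 8.23 and 7.21. At 36 weeks the arrays read 9.47, 9.24, 7.24 and 8.11, and at 58 weeks 9.38, 9.32, 9.23 and 9.51. The 58-week arrays formed the tightest group and lay above every array of 4 and 8 weeks, whereas the 36-week arrays ran from 7.24 to 9.47 and overlapped with every other age.

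In order of their means, the ages ran 8 weeks (7.88 ± 0.59, SD, n = 4), 4 weeks (8.43 ± 0.30), 36 weeks (8.51 ± 1.04) and 58 weeks (9.36 ± 0.12). Within slides, 8 against 4 weeks differed by -0.55 ± 0.50 (SE, adjusted p = 0.550) and 58 against 36 weeks by 0.85 ± 0.50 (adjusted p = 0.717). Across slides, 36 against 8 weeks differed by 0.63 ± 0.50 (adjusted p = 0.362). The neighbours 4 and 36 weeks were not tested, and their arrays overlapped. The difference of 58 against 4 weeks was 0.93 ± 0.50 (SE), with a 95% interval from -0.133 to 1.996 and an adjusted p of 0.864. The slope was 0.24 ± 0.12 per doubling of age (adjusted p = 0.525), and 0.02 with the slide as a block. Over all tested miRNAs the median slope was 0.12, and -0.58 with that block. The 2 probes of miR-21a-5p gave 0.94 and 0.91 for 58 against 4 weeks.

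The separation of 58 from 4 weeks in miR-21a-5p came with the scaling between arrays. Before scaling its signal was 603, 415, 381 and 613 at 4 weeks and 559, 384, 447 and 465 at 58 weeks, and these groups overlapped. The 75th percentile of the miRNAs that set the scale lay between 761 and 1333 at 4 weeks and between 427 and 600 at 58 weeks, so that the arrays were multiplied by 0.535 to 0.937 and by 1.19 to 1.67. Without scaling the fitted difference of 58 against 4 weeks was -0.10, beside a median of -0.95 over all tested miRNAs. Relative to that median, miR-21a-5p stood 0.86 higher without scaling and 0.93 higher with it. Only its gap between 58 and 8 weeks was without overlap under the main scaling, without scaling and under quantile normalization.

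**Figure D2:**
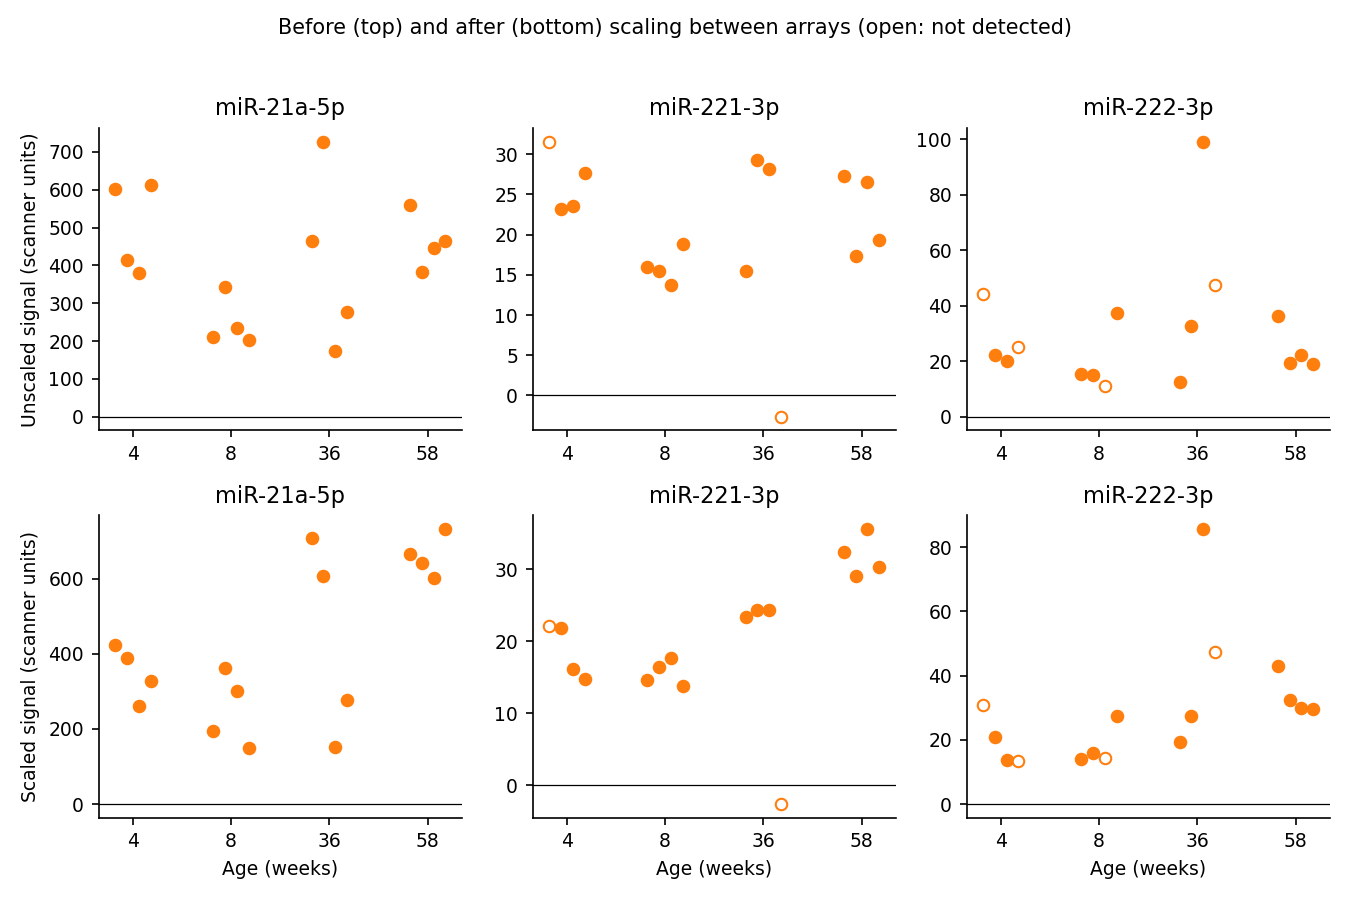
Signal of miR-21a-5p, miR-221-3p and miR-222-3p on each array by age in weeks, before scaling between arrays (top, scanner units) and after it (bottom, scanner units), with open points where the miRNA was not detected. miR-21a-5p overlaps between 4 and 58 weeks before scaling, where it spans 381 to 613 and 384 to 559.

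By the largest Pearson correlation over the 16 arrays, the miRNAs most like miR-21a-5p were miR-142a-3p (r = 0.835) and miR-223-3p (r = 0.787), out of 111 tested miRNAs detected on at least 12 arrays, for which the median r was 0.16. miR-142a is a miRNA of blood cells in general and miR-223 of myeloid cells and platelets. These 16 points share their array scaling and their age groups, and the correlations are a description.

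Levels of blood cell markers are given beside those of miR-21a-5p. Of 6 leukocyte markers listed, 4 were detected (miR-142a-3p, miR-150-5p, miR-146a-5p and miR-342-3p), while miR-142a-5p and miR-155-5p were detected on 0 arrays. The level summed over all 6, detected or not, ranged from 7.11 to 8.36 at 4 weeks and from 6.47 to 7.71 at 8 weeks. At 36 weeks it ranged from 7.46 to 8.94, and at 58 weeks from 8.40 to 8.71. With scaling, the 58-week arrays lay above all arrays of 4 and 8 weeks, as for miR-21a-5p. The gap to 4 weeks was narrow, 8.40 against 8.36. The 8.36 came from 4-week replicate 1 and the 8.94 from 36-week replicate 4, both among the 3 marked arrays. On the other arrays the sum reached 7.83 at 4 weeks and 8.37 at 36 weeks. The sum was not formed from unscaled signal, so whether the gap remains without scaling was not tested. Of the 5 erythrocyte markers 3 were detected, miR-144-5p was detected on 0 arrays and miR-486b-5p was not matched by name. The sum over the 4 on the array, detected or not, ranged from 12.05 to 12.87 at 4 weeks and from 11.28 to 12.20 at 8 weeks. At 36 weeks it ranged from 11.39 to 12.44 and at 58 weeks from 11.81 to 12.73, with overlap between 4 and 58 weeks. The sum joins markers that went opposite ways. For 58 against 4 weeks miR-451a differed by -0.52 ± 0.43 and miR-486a-5p by 0.59 ± 0.43, and neither passed the threshold. The part of these cells in the levels of miR-21a-5p was not tested.

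miR-221-3p varied little within an age on all arrays but 36-week replicate 4. Its level was 4.47 (not detected), 4.44, 4.02 and 3.89 at 4 weeks and 3.87, 4.03, 4.14 and 3.78 at 8 weeks. It was 4.55, 4.61, 4.60 and, on replicate 4, at the floor of 1.92 at 36 weeks, and 5.02, 4.86, 5.15 and 4.92 at 58 weeks. After scaling, all arrays of 58 weeks were higher than all arrays of every younger age. Before scaling the signal ran from 17.4 to 27.3 at 58 weeks and from 23.2 to 31.5 at 4 weeks. Without scaling and under quantile normalization, the 58-week arrays were apart from no younger age. On 58-week replicate 2, 1 of 30 spots was well above background, and 0 of 30 on 4-week replicate 4 and on 8-week replicate 3.

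In order, the means were 3.92 ± 1.33 (36 weeks, SD, n = 4), 3.96 ± 0.16 (8 weeks), 4.20 ± 0.30 (4 weeks) and 4.99 ± 0.13 (58 weeks), and no neighbours in this order differed beyond the test. The difference of 8 against 4 weeks was -0.24 ± 0.54 (adjusted p = 0.865) and that of 36 against 8 weeks -0.04 ± 0.54 (adjusted p = 0.954). Without replicate 4 the 36-week mean was 4.59 ± 0.032 (n = 3). Within slide 2, 58 against 36 weeks differed by 1.07 ± 0.54 (adjusted p = 0.717). It was 0.61 when that array was left out and the rest were rescaled on the 67 miRNAs then detected on every array, a change of scaling that the mean of 4.59 does not have. The difference of 58 against 4 weeks was 0.79 ± 0.54, with a 95% interval from -0.36 to 1.93 (adjusted p = 0.897). Without scaling it was -0.24, which is 0.71 above the median of all tested miRNAs, and with scaling it was 0.79 above that median. The slope was 0.14 ± 0.13 per doubling of age (adjusted p = 0.525), and 0.33 with the slide as a block. The median slope over all tested miRNAs was -0.58 with that block.

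mmu-miR-222-3p, the neighbour of miR-221-3p with the same seed, varied more. At 4 weeks it was detected on only 2 arrays, with levels of 4.95 (not detected), 4.38, 3.78 and 3.75 (not detected). At 8 weeks the arrays read 3.80, 4.00, 3.84 (not detected) and 4.77. At 36 weeks they read 4.27, 4.78, 6.42 and 5.57 (not detected), and at 58 weeks 5.43, 5.02, 4.91 and 4.89. All arrays of 58 weeks lay above all arrays of 8 weeks, but 1 array of 4 weeks and 2 of 36 weeks reached their range or passed it. On 58-week replicate 2 (5.02) miR-222-3p was called detected with 0 of 30 spots well above background.

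From the lowest mean to the highest, the ages were 8 weeks (4.11 ± 0.45, SD, n = 4), 4 weeks (4.22 ± 0.57), 58 weeks (5.06 ± 0.25) and 36 weeks (5.26 ± 0.94), with no neighbours apart beyond the test. The slope was 0.29 ± 0.11 per doubling of age, with a 95% interval from 0.063 to 0.52 (unadjusted p = 0.0157, adjusted p = 0.464). With the slide as a block it was -0.17, beside a median of -0.58 over all tested miRNAs. The difference of 36 against 8 weeks was 1.15 ± 0.49, with an interval from 0.10 to 2.20 (unadjusted p = 0.0345, adjusted p = 0.151). Without 36-week replicate 4 and with the rescaling on 67 miRNAs that difference was 0.54. Under the scaling on 24 miRNAs the 36-week mean without that array was 5.15 ± 1.13 (n = 3), close to the 5.26 with it. Within slides, 8 against 4 weeks differed by -0.11 ± 0.49 (adjusted p = 0.934) and 58 against 36 weeks by -0.19 ± 0.49 (adjusted p = 0.845). The difference of 58 against 4 weeks was 0.85 ± 0.49 (adjusted p = 0.864), and without scaling it was -0.18.

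The ratio of miR-221-3p to miR-222-3p within an array was followed because the neighbours carry the same seed. On the log2 scale the difference between them was 0.07, 0.03, 0.30 and -0.99 at 8 weeks, 0.28, -0.17, -1.82 and -3.64 at 36 weeks, and -0.41, -0.17, 0.25 and 0.03 at 58 weeks. The lowest value came from the array on which neither was detected. The ratio differed by -1.19 between 36 and 8 weeks (exact 2-sided permutation test, p = 0.257) and was 1.26 higher at 58 than at 36 weeks (exact permutation test, p = 0.314), with both adjusted p-values at 0.314. The smallest p this design allows is 0.0286. Without 36-week replicate 4 these differences were -0.42 and 0.49. Pairs with 4 weeks were not compared because miR-222-3p was detected on 2 of 4 arrays there, and the arm ratio of miR-126a could not be formed.

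miR-126a-3p, whose known targets include Spred1, showed no separation of ages. Its level was 6.10, 6.89, 5.65 and 5.07 at 4 weeks and 5.58, 5.98, 5.46 and 5.04 at 8 weeks. It was 6.49, 6.54, 4.64 and, on replicate 4, at the floor at 36 weeks, and 6.40, 5.30, 6.34 and 6.13 at 58 weeks. Every age overlapped with every other.

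From low to high, the means were 4.90 ± 2.17 (36 weeks, SD, n = 4), 5.51 ± 0.38 (8 weeks), 5.93 ± 0.77 (4 weeks) and 6.04 ± 0.51 (58 weeks), with no neighbours apart beyond the test. From 4 to 8 weeks the difference was -0.41 ± 0.82 (adjusted p = 0.856), and from 8 to 36 weeks it was -0.62 ± 0.82 (adjusted p = 0.586). Without replicate 4 the 36-week mean was 5.89 ± 1.09 (n = 3), close to that at 4 weeks. For 58 against 4 weeks the difference was 0.11 ± 0.82, with a 95% interval from -1.63 to 1.85 (adjusted p = 0.998). Between 58 and 36 weeks it was 1.14 ± 0.82 (adjusted p = 0.717). Without replicate 4 and with the rescaling on 67 miRNAs it was 0.36, while the mean of 5.89 keeps the scaling on 24. The slope was -0.06 ± 0.19 per doubling of age (adjusted p = 0.834). The interval of 58 against 4 weeks leaves room for a change of over 1.5 on the log2 scale in either direction.

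mmu-miR-26a-5p, which is known to repress Ezh2, showed no separation of ages either. Its level was 4.08 (not detected), 5.92, 4.87 and 4.56 at 4 weeks and 3.96, 4.71, 1.92 (the floor) and 5.75 at 8 weeks. It was 5.47, 6.08, 5.86 and 1.92 (the floor) at 36 weeks, and 5.69, 4.86, 5.34 and 5.22 at 58 weeks. Every age overlapped with every other, and the lowest array at 8 and at 36 weeks was one without detection.

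Ordered by level, the means were 4.09 ± 1.62 (8 weeks, SD, n = 4), 4.83 ± 1.96 (36 weeks), 4.86 ± 0.78 (4 weeks) and 5.28 ± 0.34 (58 weeks), and the neighbours that were tested did not differ beyond the test. The pair of 36 and 4 weeks was not tested. From 4 to 8 weeks the difference was -0.77 ± 0.90 (adjusted p = 0.683), from 8 to 36 weeks 0.75 ± 0.90 (adjusted p = 0.549) and from 36 to 58 weeks 0.44 ± 0.90 (adjusted p = 0.800). Without replicate 4 the 36-week mean was 5.81 ± 0.31 (n = 3), above the 58-week mean. The difference of 58 against 4 weeks was 0.42 ± 0.90, with an interval from -1.50 to 2.34 (adjusted p = 0.998). Its 2 probes gave 0.81 and 0.31 for that difference. The slope was 0.16 ± 0.20 per doubling of age (adjusted p = 0.577).

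**Figure D3:**
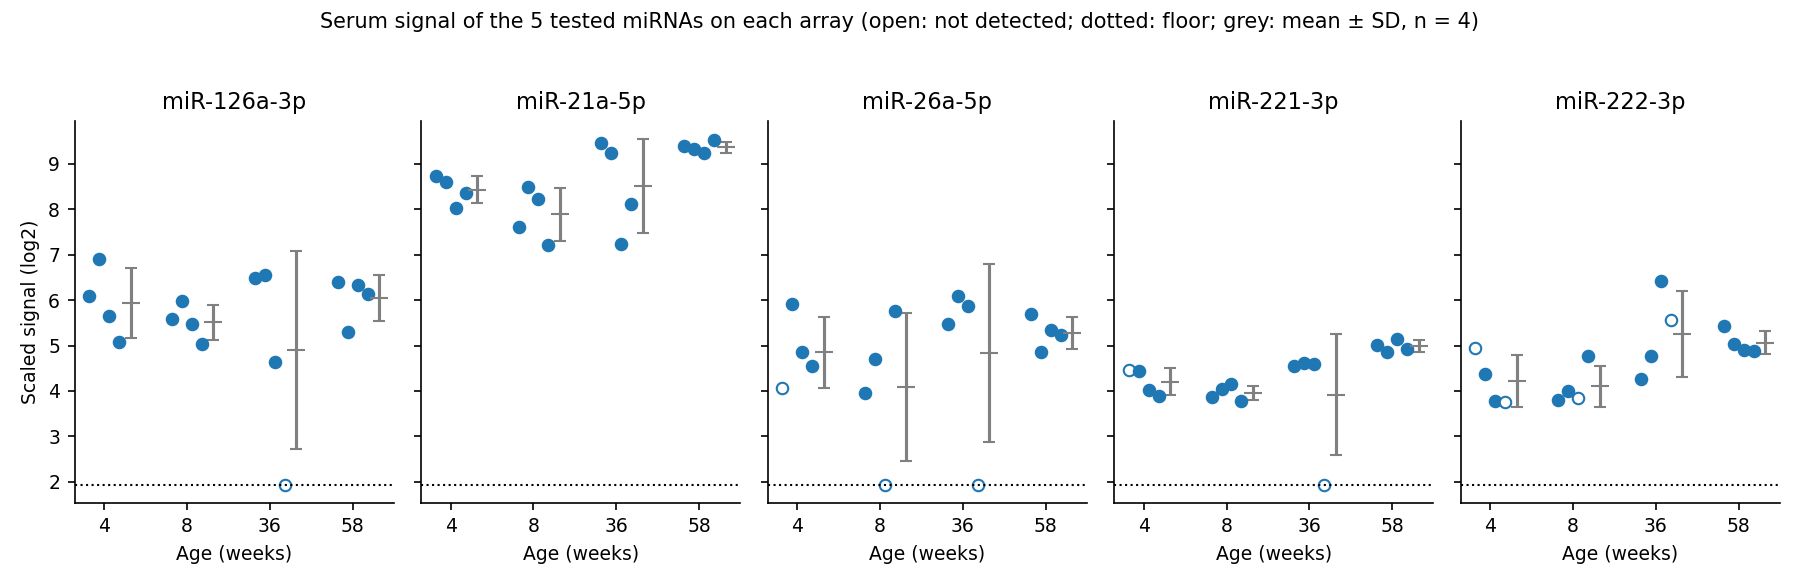
Scaled signal (log2) of the 5 tested miRNAs on each array against age in weeks, with open points where the miRNA was not detected, the floor as a dotted line and the mean ± SD of 4 arrays in grey. The 58-week points of miR-21a-5p (9.23 to 9.51) and miR-221-3p (4.86 to 5.15) lie above all points of 4 and 8 weeks.

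A gap without overlap between ages was seen for some of the 5 miRNAs and was uncommon among all tested miRNAs. At 58 weeks all arrays were higher than at 4 weeks for miR-21a-5p and miR-221-3p (3.86% of the 285), higher than at 36 weeks for miR-221-3p (3.86%), and higher than at 8 weeks for miR-21a-5p, miR-221-3p and miR-222-3p (7.72%). In 8 against 4 and 36 against 8 weeks no member was apart in that direction, where the shares were 0% and 2.46%. With the older age higher, miR-21a-5p alone remained apart without scaling and under quantile normalization. In both this was in 58 against 8 weeks, beside 1.40% of all tested miRNAs. Without scaling, miR-126a-3p, miR-21a-5p and miR-221-3p were also lower at 8 than at 4 weeks without overlap. Over all tested miRNAs this held for 39 of the 285 (13.7%).

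Set beside all tested miRNAs, the median of the 5 had the same sign in the steps from 4 to 8 and from 8 to 36 weeks, and the opposite sign in the step from 36 to 58 weeks. From 4 to 8 weeks the median difference over the 5 was -0.41 and 0 of 5 were higher, against a median of -0.72 and 19.6% higher among all tested. From 8 to 36 weeks it was 0.63 with 3 of 5 higher, against 0.71 and 62.1%. From 36 to 58 weeks it was 0.85 with 4 of 5 higher, against -0.52 and 31.6%. For 58 against 4 weeks it was 0.79 with 5 of 5 higher, against -0.0031 and 49.5%. For the slope it was 0.16 with 4 of 5 above 0, against 0.12 and 57.9%. With the slide as a block the median slope was 0.02 over the 5 and -0.58 over all tested miRNAs. These comparisons share arrays. Without scaling, 0 of the 5 were higher at 58 than at 4 weeks, with a median of -0.24 beside -0.95 over all tested miRNAs. Under quantile normalization the median of the 5 was 0.72 from 4 to 8 weeks, beside 0.15, and -0.71 from 8 to 36 weeks, beside -0.38. Without 36-week replicate 4, with the rescaling, the median of the 5 from 36 to 58 weeks was 0.36 beside 0.30 over all tested miRNAs, so that the signs were no longer opposite.

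**Figure D4:**
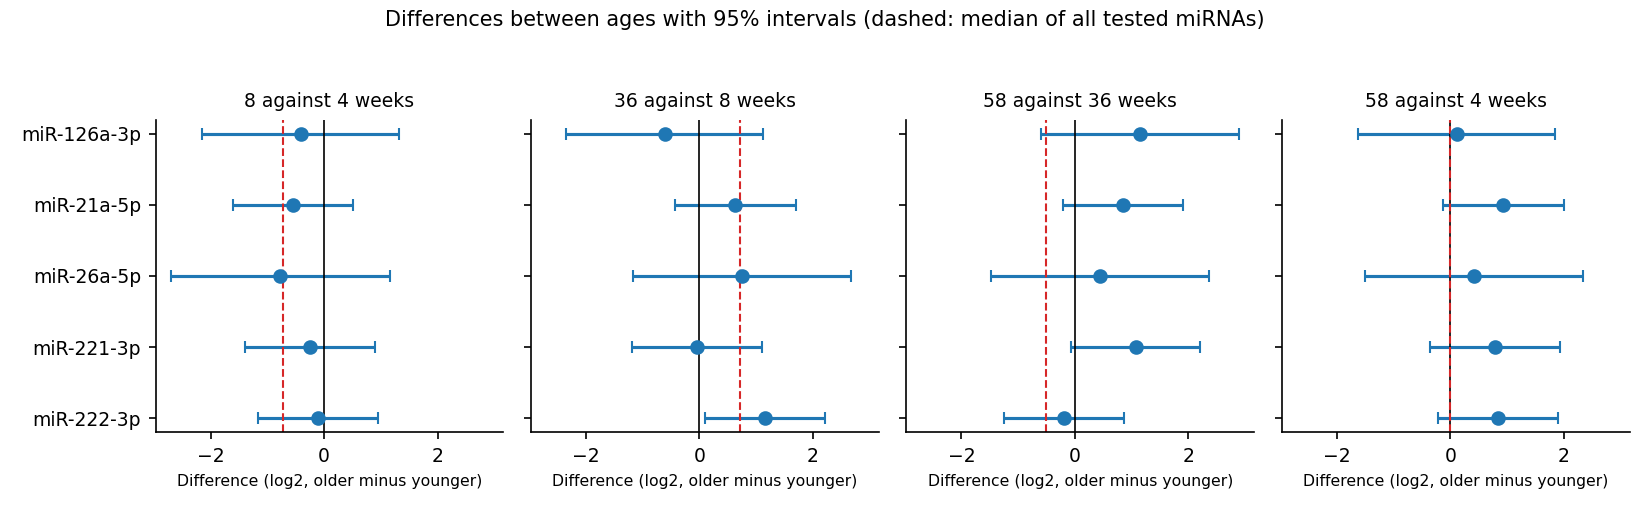
Difference of the older minus the younger age (log2) for the 5 tested miRNAs in 4 comparisons, as points with 95% intervals, and the median over all 285 tested miRNAs as a dashed red line. All intervals cross 0 except that of miR-222-3p in 36 against 8 weeks (0.10 to 2.20), and for 58 against 4 weeks all 5 points lie above 0, where without scaling all 5 were below it.

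The spread within an age differed between ages. At 58 weeks the SD was 0.12 for miR-21a-5p, 0.13 for miR-221-3p, 0.25 for miR-222-3p, 0.34 for miR-26a-5p and 0.51 for miR-126a-3p, and all 5 lay below the median SD of 0.56 over all tested miRNAs at that age. At 36 weeks that median SD was 1.71, at 4 weeks 1.26 and at 8 weeks 0.93. All 5 also lay below the median at 4 weeks, where the highest SD was 0.78 for miR-26a-5p. At 8 weeks only miR-26a-5p (1.62) lay above it, and at 36 weeks miR-126a-3p (2.17) and miR-26a-5p (1.96) did. For 4 of the 5 miRNAs the smallest SD was at 58 weeks. The exception was miR-126a-3p, whose SD was 0.38 at 8 weeks. The median SD over all tested miRNAs was smallest at 58 weeks too. The share of them with their smallest SD at that age was not counted.

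Relatives of the members were mostly not detected. Of 14 other arms, paralogs and cluster neighbours, 2 were detected on at least 1 array, and neither passed the threshold in any comparison. miR-26b-5p, which shares the seed of miR-26a-5p, was detected on 8 arrays and differed by -0.55 ± 0.85 between 58 and 4 weeks (adjusted p = 0.998). miR-425-5p, the neighbour of miR-191 within Dalrd3, was detected on 14 arrays and differed by -0.11 ± 0.53 (adjusted p = 0.998). Its neighbour miR-191-5p was detected on 0 arrays. miR-21b and miR-21c were detected on 0 arrays, beside 16 for miR-21a-5p. miR-21a-3p, miR-221-5p and miR-222-5p, the opposite arms, were likewise detected on 0 arrays.

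Of 16 other miRNAs abundant in platelets, all 16 were detected on at least 1 array, 4 on all arrays, and 15 were tested. None of the 15 passed in any comparison. For 58 against 4 weeks 10 were higher and 5 lower, with a median difference of 0.08. The 2 with the smallest p in the test for any difference were miR-92a-3p, which differed by 0.73 ± 0.40 between 58 and 4 weeks (adjusted p = 0.864), and miR-106b-5p, which differed by -0.0040 ± 0.72 (adjusted p = 0.998).

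Of 18 other miRNAs of endothelium and vessel wall, 10 were detected and 8 tested, and none of the 8 passed in any comparison. miR-143 and miR-145a, the main miRNAs of vascular smooth muscle, were detected on 0 arrays in either arm. For 58 against 4 weeks 3 of the 8 were higher and 5 lower, with a median of -0.36. The 2 with the smallest p in the test for any difference were miR-125a-5p and miR-99a-5p. Between 58 and 4 weeks miR-125a-5p differed by 0.25 ± 0.70 (adjusted p = 0.998) and miR-99a-5p by -0.76 ± 0.49 (adjusted p = 0.871).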

How the data were processed

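The members and the lists were chosen with earlier results of these data known. The deposited files are scanner output of 16 arrays, made with Agilent Feature Extraction 11.5 per the submitters' processing notes and 11.5.1.1 per the file headers. They hold background-subtracted spot intensity, total signal per miRNA, outlier flags and detection calls, as deposited by the authors. The headers record no step that scales arrays to each other. Outlier spots were left out, and intensities were averaged over spots and then over probes. Each array was scaled to an equal 75th percentile of the 24 miRNAs with a detection call on every array, floored at 3.79 and put on the log2 scale. limma 3.58.1 in R 4.3.3 fitted 1 mean per age over the 16 arrays (or a line in log2 age), with p-values adjusted over 285 miRNAs in each comparison. The fitting code was tested on simulated log2 values with the same spread at every age. Scaling, floor and detection calls were not part of that test. All 7 members are named. Of the lists, relatives that were detected and the 2 miRNAs with the smallest p in the test for any difference are named. Other relatives and markers detected on no array were named after their values were seen. For normexp the offset was 50. The number of arrays limits the precision. Alternatives covered scaling, background correction, floor, filter, variance model, weights, blocks and each array left out. Leaving out 2 arrays together, and the overlap of ages under other scalings, were added after seeing the data. Scaling on all miRNAs was not run.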

Additional observations from a re-analysis of the deposited data

Results flagged for a closer look

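In 28 groups of 4 arrays checked (the levels of the 5 tested members, the ratio of miR-221-3p to miR-222-3p and the negative-control SD, each at 4 ages), 4 held an array far from the other 3, where chance gives about 1.4. The groups share arrays, so the 4 are not independent of each other, and most of them lie on 36-week replicate 4. The miRNA values among them were set to the floor, and an excess over 1.4 was not tested. miR-26a-5p read 1.92, the floor, on 36-week replicate 4, against 5.47 to 6.08 on the other 36-week arrays. miR-221-3p read 1.92 there as well, against 4.55 to 4.61. The negative-control SD of that array was 59.3, against 2.76 to 4.39. The negative-control SD of 8-week replicate 3 was 3.54, against 1.82 to 2.01 on the other 8-week arrays, and miR-26a-5p and miR-222-3p were not detected there. The part of background in these values was not tested.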

How the results depend on the processing

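Over 30 member results, 863 of 940 values under 32 alternatives kept direction and side of the threshold, 58 reversed and 19 came to pass it. Part of the 863 could not reverse, so the count is no measure of stability. The test for any difference has no direction, and the replicate block and the variance model left each difference unchanged. The cause of a reversal was not tested, except that leaving out an array can change the scaling: without 36-week replicate 4, 67 in place of 24 miRNAs set it. The number of members past the threshold, 0 in each comparison, rose to 3 for the trend under normexp, under array weights and without the 3 marked arrays. Under array weights it also rose to 4 for any difference, 4 for 36 against 8 weeks and 3 for 58 against 4 weeks, beside 76.5%, 63.2% and 62.1% of all tested miRNAs (65.6% for the trend), and that estimate of weights did not converge fully. It stayed at 0 whichever array was left out.

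Values that reversed follow, in log2. Without scaling, 58 against 4 weeks was -0.92 for miR-126a-3p, -0.10 for miR-21a-5p, -0.24 for miR-221-3p, -0.18 for miR-222-3p and -0.61 for miR-26a-5p, and the slope was -0.084 for miR-221-3p and -0.065 for miR-26a-5p. Under quantile normalization, 8 against 4 weeks was 0.72 for miR-126a-3p, 0.94 for miR-221-3p, 0.98 for miR-222-3p and 0.21 for miR-26a-5p, 36 against 8 weeks was -0.71 for miR-21a-5p, and 58 against 36 weeks was 0.18 for miR-222-3p. With the deposited total signal, 8 against 4 weeks was 0.33 for miR-221-3p and 0.58 for miR-222-3p, and 58 against 36 weeks was 0.66 for miR-222-3p. Under normexp, the slope of miR-126a-3p was 0.11 and 36 against 8 weeks was 0.27 for miR-126a-3p and 0.46 for miR-221-3p. With the floor doubled, 36 against 8 weeks was 0.21 for miR-221-3p.

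Under array weights miR-126a-3p had a slope of 0.079, 0.65 for 36 against 8 weeks, -0.36 for 58 against 36 weeks and -0.025 for 58 against 4 weeks. There miR-221-3p had 0.63 for 36 against 8 weeks, and for 58 against 36 weeks miR-222-3p had 0.28 and miR-26a-5p -0.64. With the slide as a block, slopes were 0.25 for miR-126a-3p, -0.17 for miR-222-3p and -0.32 for miR-26a-5p. The median over all tested miRNAs was then -0.58, and 36 against 8 and 58 against 4 weeks had no value. Without the 3 marked arrays, the slope of miR-126a-3p was 0.028, 8 against 4 weeks was 0.087 for miR-21a-5p, 0.25 for miR-221-3p and 0.55 for miR-222-3p, 36 against 8 weeks was 0.15 for miR-221-3p, and 58 against 36 weeks was 0.19 for miR-222-3p and -0.25 for miR-26a-5p. Leaving out 36-week replicate 4 and 4-week replicate 1 together was chosen after seeing the data, and miR-126a-3p then had a slope of 0.067 and 0.083 for 8 against 4 weeks. There miR-221-3p had 0.28 for 8 against 4 and 0.11 for 36 against 8 weeks, miR-222-3p 0.57 and 0.21 for 8 against 4 and 58 against 36 weeks, and miR-26a-5p -0.23 for the latter.

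With each array left out in turn, the slope of miR-126a-3p ranged from -0.11 to 0.026 and its 58 against 4 weeks from -0.17 to 0.43. For 8 against 4 weeks the range was -0.35 to 0.14 for miR-221-3p and -0.33 to 0.27 for miR-222-3p, for 36 against 8 weeks -0.29 to 0.12 for miR-221-3p, and for 58 against 36 weeks -0.52 to 0.19 for miR-222-3p and -0.32 to 0.88 for miR-26a-5p. The ratio of miR-221-3p to miR-222-3p ranged from -1.75 to -0.42 for 36 against 8 weeks and from 0.49 to 1.82 for 58 against 36 weeks. Scaling on the 75th percentile over all miRNAs was not run, since that percentile was not above 0 on 1 array.

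With the replicate number as a block, 0 members passed in any comparison, and the slope of miR-222-3p stayed at 0.29 (adjusted p = 0.56, limma). The numbers give no pairing: deviations of same-number arrays correlated between -0.896 and 0.812, with 11 of 24 pairs over 0.1, and 2 of 16 arrays correlated best with their own number.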

Other observations

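Of the 3 liver miRNAs listed as markers, miR-122-5p and miR-192-5p were tested. Their summed level with miR-194-5p ranged from 5.61 to 10.29 at 4 weeks, from 4.76 to 8.62 at 8 weeks, from 6.13 to 8.95 at 36 weeks and from 7.40 to 7.98 at 58 weeks. Of 5 miRNAs of striated muscle, miR-1a-3p and miR-133a-3p were detected. The sum of the list ranged from 6.56 to 8.37 at 4 weeks, from 5.99 to 8.03 at 8 weeks, from 7.90 to 9.85 at 36 weeks and from 6.49 to 8.22 at 58 weeks.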
